A study of Mus musculus with 5 samples.

Results

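Cytochrome P450 genes were described in reprogrammed, fetal and neural progenitor cells of the mouse. The members were all probes on the array, control probes aside, whose gene name in the file, or whose current symbol for the listed accession, read Cyp followed by a number, letters and a number, with Cyp51 left out. This gave 75 genes on 108 of 41174 probes, of 28786 genes in all. The study hybridised RNA of 5 cultures, 1 array each, on Agilent whole-genome arrays with 1 colour. Induced hepatic progenitor cells (iHPC, 2 arrays) came from the neural progenitor line NSBAg2 by retroviral pMXs vectors, without drug-selection markers, that carried 9 transcription factors (9F) or 10 (10F). G418 was added 3 weeks after infection and the cells were harvested 1 week later. NSBAg2 derives from the embryonic stem cell line BAg73C2, in which beta-geo sits in 1 Afp allele, so iHPC were selected for an active Afp locus and carry this allele as NPC do. Hepatic progenitor cells (HPC, 2 arrays) were the lines HB1 and HNG2 from midgestation (E13.5) fetal liver, HB1 of strain C57BL6J and HNG2 of STOCK Tg(Nanog-GFP, Puro)1 Yam. Neural progenitor cells (NPC, 1 array) were the uninfected NSBAg2 line. Nothing in the labels says that any line was cultured more than 1 time, so p-values rest on how far the 2 HPC lines, and the 2 iHPC lines, lie from each other.

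Cytochromes P450 are haem enzymes that insert an oxygen atom into their substrate, with electrons passed from NADPH by P450 oxidoreductase in the endoplasmic reticulum or by ferredoxin in mitochondria. Some families clear drugs and other foreign compounds, mostly in liver and gut, and others make or remove steroids, bile acids, retinoic acid, vitamin D and oxygenated fatty acids. In the adult liver many of these genes depend on the nuclear receptor HNF4A, and several are switched on by the ligand sensors PXR (Nr1i2) and AHR.

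Levels are log2 intensities relative to the 75th percentile of the array, so 0 is that percentile, and results compare arrays within 1 probe, since the intensities of different probes do not order the genes. Between 58.9% and 65.6% of spots were well above background, and the small number of arrays limits the precision. The labelled cell types were set against their markers. Of 10 hepatocyte markers 9 were well above background on each iHPC array, 10 on HB1, 9 on HNG2 and 2 on NPC. Their summed signal, in multiples of the 75th percentile, was 567 and 679 in iHPC 9F and 10F, 263 in HB1, 30.7 in HNG2 and 0.538 in NPC. Afp is 1 of these 10 markers, and iHPC were selected for an active Afp locus, so in iHPC this marker was favoured by the selection itself. Of 7 cholangiocyte markers 7 and 6 were well above background in iHPC 9F and 10F, 7 in each HPC line and 5 in NPC. They summed to 332 and 281 in iHPC 9F and 10F, 328 and 427 in HB1 and HNG2, and 359 in NPC, so their sum did not separate NPC. Of 8 neural progenitor markers 6 and 5 were well above background in iHPC 9F and 10F, 4 and 5 in HB1 and HNG2, and 7 in NPC, where Olig2 was not. These summed to 9.96 and 10.85 in iHPC 9F and 10F, 1.38 and 3.01 in HB1 and HNG2, and 17.7 in NPC. NPC also had the highest summed signal of 8 fibroblast and mesenchymal markers, 277, against 67.9 and 55.9 in iHPC 9F and 10F and 106 and 91.0 in HB1 and HNG2. Endothelial markers summed to at most 0.133 and blood markers to at most 0.597 on any array. These are bulk samples, in which fewer cells of a type and less RNA per cell cannot be told apart.

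P450 genes were missing from all arrays about as often as all genes. They were less often found on all 5 arrays, and more often on the hepatic arrays without NPC. Well above background on at least 1 probe were 42 and 40 of the 75 genes in iHPC 9F and 10F, 48 and 43 in HB1 and HNG2, and 36 in NPC. The shares of all genes were 62.3% and 58.3% in iHPC 9F and 10F, 65% and 63.6% in HB1 and HNG2, and 61.2% in NPC. On no array were 20 genes (26.7%, against 26.1% of all genes). Among these were the adult liver enzymes Cyp7a1 and Cyp8b1 of bile acid synthesis, Cyp2e1, which oxidises ethanol, Cyp1a1 and Cyp1a2, which oxidise polycyclic and aromatic compounds, and Cyp3a25. On all 5 arrays were 25 genes (33.3%, against 52.5% of all genes). Their levels could still differ, as for Cyp2s1, with a log2 difference of 6.56 in iHPC against NPC. On all iHPC and HPC arrays but not NPC were 8 genes, Cyp2c23, Cyp2c29, Cyp2c40, Cyp2c65, Cyp3a13, Cyp3a41a, Cyp4b1 and Cyp4f14 (8 of 75, against 1.62% of all genes). Cyp2j9 was the 1 member found in NPC alone (1.91% of all genes). HPC arrays alone had 6 genes (6.85% of all genes), iHPC arrays alone had 3, Cyp11a1, Cyp2d34 and Cyp2j5 (1.92%), and 12 had other patterns (9.14%).

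**Figure D1:**
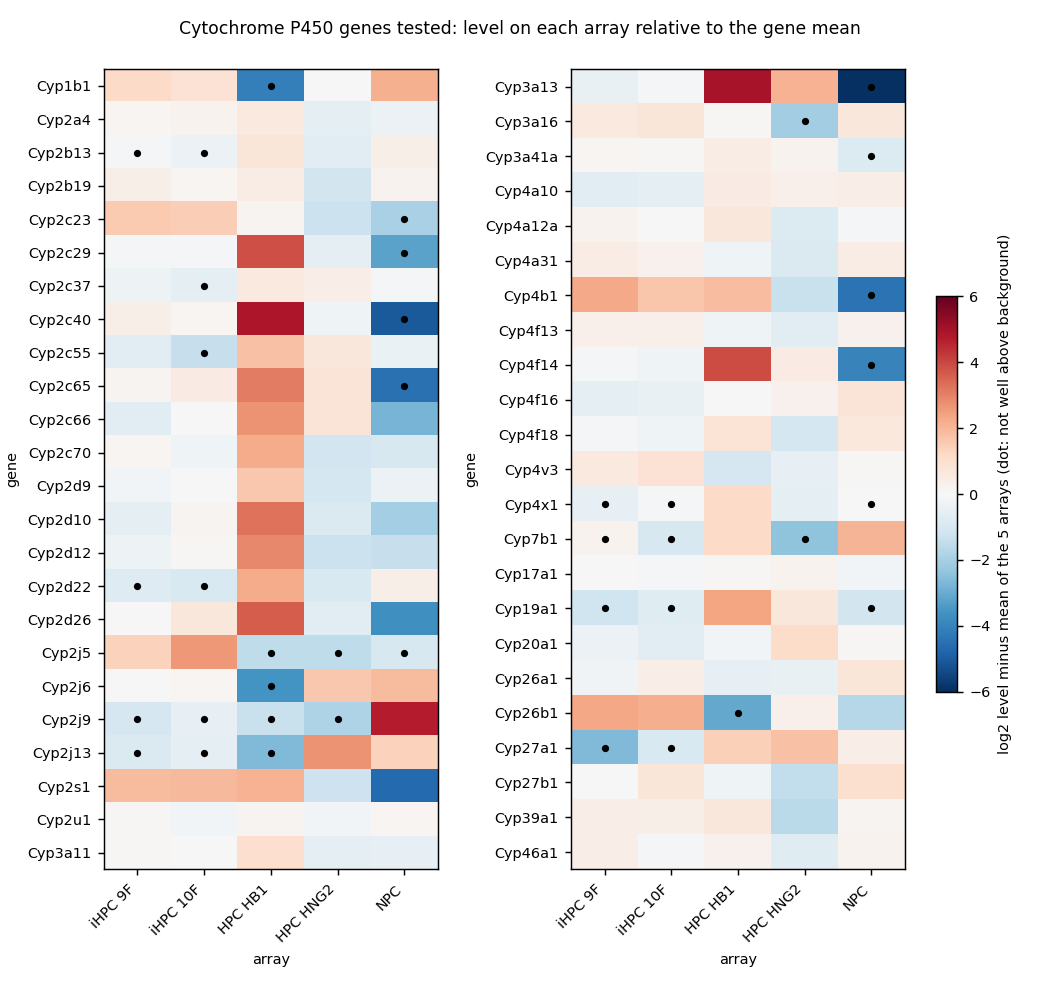
Level of each of the 47 P450 genes tested on each array (columns, iHPC, HPC and NPC) as the log2 level minus the mean of that gene over the 5 arrays, with a dot where the probe was not well above background. HB1 holds most of the dark red cells, HNG2 and the iHPC arrays are paler, and Cyp2j9 is high in NPC alone. Its NPC level before the gene mean was subtracted was -1.96.

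To be tested, a gene needed a probe that was well above background on all arrays of 1 or more cell types, as 47 of the 75 members had. A member that passed through the cell type where it is high had to differ, so the counts only describe the members. Differences were tested with limma in 1 fit of the 5 arrays, and a call means an adjusted p under 0.05 over all 19302 genes tested. Where all arrays of a cell type left a probe short of well above background, its fold is given as "at least", with the dim arrays set at the higher of their own value and the lowest level well above background.

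iHPC against NPC compares the induced cells with their uninfected parental line. The factors, the infection, the weeks in culture after it and the G418 selection cannot be told apart here. In this comparison 1 of 47 members was called, Cyp2j9, which fell. Several genes of the Cyp2c, Cyp3a and Cyp4 families lay far above NPC in both iHPC lines without a call. All genes gave 5.64% called, 2.79% higher and 2.85% lower. The median difference was 0.11 over the 47 members and 0.03 over all genes tested. At an unadjusted p under 0.05 there were 10 members (21.3%, against 24.4% of all genes). The spread in this fit comes mostly from the HPC pair, since genes had a median SD of 0.105 between the iHPC lines and 0.374 between the HPC lines. iHPC and NPC were scanned on 1 day and each HPC array on another, and with scan day as a block the spread is that of 9F and 10F alone. In that fit 23 of 47 members were called, 15 higher and 8 lower, against 35.0% of all genes, 16.8% higher and 18.2% lower. Leaving out HB1 or HNG2 gives this same fit, since a lone HPC array adds no spread, so it is no separate check. The calls did not hold when either iHPC array was left out.

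Cyp3a13, a Cyp3a enzyme of liver and gut, had levels of -1.77 and -1.44 in iHPC 9F and 10F, 3.64 and 0.75 in HPC HB1 and HNG2, and -7.77 in NPC. Both iHPC arrays and both HPC arrays lay above NPC, where the probe was not well above background, and HPC lay above iHPC. The level was at least 15.9-fold higher in iHPC than in NPC, with a log2 difference of 6.17 ± 1.34 (SE, 2 iHPC arrays and 1 NPC array) and an adjusted p of 0.101 in the 5-array limma fit and 0.00442 with scan day as a block. Its probe lies at chr5:136812092-136812151 of the array's build mm7, on the minus strand.

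Cyp2c65, which oxidises arachidonic acid and is known mainly from the mouse gut, had levels of -1.42 and -1.08 in iHPC 9F and 10F, 1.50 and -0.83 in HPC HB1 and HNG2, and -6.06 in NPC. The iHPC values sat just below those of HNG2, and NPC was not well above background. The gene was at least 20.3-fold higher in iHPC than in NPC (log2 difference 4.81 ± 1.09, limma adjusted p 0.108, and 0.00535 with scan day as a block). Cyp2c40, a hydroxylase of arachidonic acid in the mouse, had levels of -2.26 and -2.52 in iHPC 9F and 10F, 2.21 and -2.89 in HPC HB1 and HNG2, and -7.67 in NPC. HB1 stood above the other hepatic arrays, while HNG2 and both iHPC arrays lay close together. Cyp2c40 was at least 9.24-fold higher in iHPC than in NPC, with a limma adjusted p of 0.28 over 5 arrays and 0.00442 with scan day as a block. The file lists Cyp2c67 and Cyp2c68 for the same probe, so these copies cannot be told apart. Another Cyp2c40 probe was well above background in HB1 (-0.97) and 9F (-5.28), but not in HNG2 (-6.56), 10F (-5.63) or NPC (-7.78).

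The stretches before the transcription start of these genes are shown because Cyp2c65, Cyp2c40 and Cyp3a41a belong to the members found in iHPC and HPC but not in NPC and hold the same HNF4 site, while Cyp2j9 is the member called lower. For Cyp3a41a the gap was small, with mean levels of -4.41 in iHPC and -4.18 in HPC, and -5.35 in NPC. It was at least 1.91-fold higher in iHPC than in NPC. Its absence in NPC was borderline, since the lowest level well above background on that array was -5.59. Sequences are from RefSeq (GRCm38.p6), 250 bases each, 5′ to 3′ on the strand of the gene, in lower case with the HNF4 site in capitals.
Cyp2c65, upstream of the start at chr19:39060756-39061005 (+ strand): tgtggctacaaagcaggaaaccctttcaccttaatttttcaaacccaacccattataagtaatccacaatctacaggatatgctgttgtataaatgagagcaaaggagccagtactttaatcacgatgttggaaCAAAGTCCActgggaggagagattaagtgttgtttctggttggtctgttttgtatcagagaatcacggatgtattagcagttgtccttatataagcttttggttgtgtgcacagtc
Cyp2c40, upstream of the start at chr19:39812815-39813064 (- strand): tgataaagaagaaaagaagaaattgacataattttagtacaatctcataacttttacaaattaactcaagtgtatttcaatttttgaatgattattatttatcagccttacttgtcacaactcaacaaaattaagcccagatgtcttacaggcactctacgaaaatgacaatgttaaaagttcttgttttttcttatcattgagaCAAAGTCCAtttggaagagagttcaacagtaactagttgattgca
Cyp3a41a, upstream of the start at chr5:145720137-145720386 (- strand): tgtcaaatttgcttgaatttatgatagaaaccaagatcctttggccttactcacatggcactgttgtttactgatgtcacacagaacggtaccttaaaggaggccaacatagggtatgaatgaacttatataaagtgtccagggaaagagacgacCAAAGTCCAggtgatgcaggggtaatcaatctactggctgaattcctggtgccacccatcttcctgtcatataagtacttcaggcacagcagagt
Cyp2j9, upstream of the start at chr4:96591486-96591735 (- strand): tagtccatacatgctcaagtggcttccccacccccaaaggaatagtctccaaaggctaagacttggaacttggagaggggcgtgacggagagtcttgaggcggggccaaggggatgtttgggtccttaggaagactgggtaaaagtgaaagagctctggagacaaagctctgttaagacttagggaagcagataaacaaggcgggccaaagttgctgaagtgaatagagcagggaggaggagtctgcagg
The table of promoters, from 250 bases before to 50 bases after the start, held 55 of the 75 members. The HNF4 site, searched as CAAAGTCCA on both strands, was in 7 of these 55 (12.7%), Cyp2c40, Cyp2c65, Cyp2c70, Cyp3a11, Cyp3a16, Cyp3a41a and Cyp8b1, and in 0.477% of 27025 promoters of the same length. Its first base lay 116 bases before the start in Cyp2c65, 45 in Cyp2c40 and 95 in Cyp3a41a. Well above background on both iHPC arrays were 6 of the 7, against 24 of the other 48 members with a promoter in the table. In NPC it was 3 of the 7 (Cyp2c70, Cyp3a11 and Cyp3a16), against 24 of the 48, and Cyp8b1 was on no array. The site did not overlap the TATA box, searched as TATAAA on both strands and found in 43.6% of the members' promoters and 14.2% of all promoters. Related copies share promoter sequence, so these 7 genes are not independent. The file also lists Cyp3a41a and Cyp3a44 for the Cyp3a11 probe. Detection is not a rise over NPC: iHPC minus NPC was -0.03 for Cyp3a16, 0.55 for Cyp3a11, 0.92 for Cyp2c70 and 0.94 for Cyp3a41a. It was 4.81 for Cyp2c65 and 5.29 for Cyp2c40. Whether the site goes with the level was not tested. The 250 bases before Cyp3a13, Cyp2c29, Cyp4b1, Cyp4f14 and Cyp2s1 held no HNF4 site, which says only that these letters are not in those windows. Of these genes all but Cyp2s1 were also found in iHPC and HPC but not in NPC. Cyp2c23, of the same pattern, had no promoter to search.

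Cyp2s1, an epithelial P450 that acts on retinoids and eicosanoids, had levels of 5.43 and 5.48 in iHPC 9F and 10F, 5.61 and 2.31 in HPC HB1 and HNG2, and -1.10 in NPC. All arrays were well above background, and both iHPC lines lay at the level of HB1, above HNG2 and NPC. The iHPC minus NPC difference was 6.56 ± 1.51 on the log2 scale, with a limma adjusted p of 0.111 over the 5 arrays and 0.00438 with scan day as a block. Cyp2d26, of the subfamily that in humans clears many drugs, had levels of -0.92 and -0.25 in iHPC 9F and 10F, 2.73 and -1.57 in HPC HB1 and HNG2, and -4.59 in NPC. HB1 was highest, NPC lowest, and both iHPC arrays lay between HB1 and HNG2. The iHPC minus NPC difference of Cyp2d26 was 4.01 ± 1.98, with a limma adjusted p of 0.326 over the 5 arrays and 0.0115 with scan day as a block. Another probe for Cyp2s1 was not well above background on any array.

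Cyp4b1, known from lung for activating plant toxins, and the other genes in the rest of this paragraph were chosen for mention after their values were seen. Its levels were -1.11 and -1.76 in iHPC 9F and 10F, -1.58 and -4.76 in HPC HB1 and HNG2, and -7.84 in NPC, so that the iHPC arrays lay on either side of HB1 and above HNG2, with NPC not well above background. The gene was at least 17.9-fold higher in iHPC than in NPC (limma adjusted p 0.112 over 5 arrays, and 0.00599 with scan day as a block). Cyp4f14, which inactivates leukotriene B4 in the mouse, had -3.56 and -3.72 in iHPC 9F and 10F, 0.47 and -2.97 in HPC HB1 and HNG2, and -7.48 in NPC, and was at least 3.87-fold higher in iHPC than in NPC. Cyp2c29, a liver epoxygenase of arachidonic acid, had -4.06 and -4.07 in iHPC 9F and 10F, -0.13 and -4.51 in HPC HB1 and HNG2, and -7.18 in NPC, with iHPC close to HNG2 and at least 2.88-fold above NPC. Cyp2c23, named Cyp2c44 in the file and also an epoxygenase, had -3.66 and -3.76 in iHPC 9F and 10F, -5.08 and -6.54 in HPC HB1 and HNG2, and -7.22 in NPC. It was the only one of these in which both iHPC arrays exceeded both HPC arrays, with an iHPC minus HPC difference of 2.10 ± 0.57 and a limma adjusted p of 0.13.

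Cyp2j9, a brain P450 that hydroxylates arachidonic acid in the mouse, was the member called lower in the 5-array fit. Its levels were -7.64 and -7.16 in iHPC 9F and 10F, -8.01 and -8.50 in HPC HB1 and HNG2, and -1.96 in NPC, and no iHPC or HPC array was well above background. Cyp2j9 was at least 11.1-fold lower in iHPC than in NPC (log2 difference -5.44 ± 0.38, limma adjusted p 0.0284 over 5 arrays). With scan day as a block its adjusted p was 0.00575. Cyp2j9 was tested only because it was well above background in NPC, and its spread comes from dim arrays alone. The small SE and these p-values therefore rest on scatter near background. The 60-base probe lies at chr4:95961197-95961256 (mm7, minus strand).

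**Figure D2:**
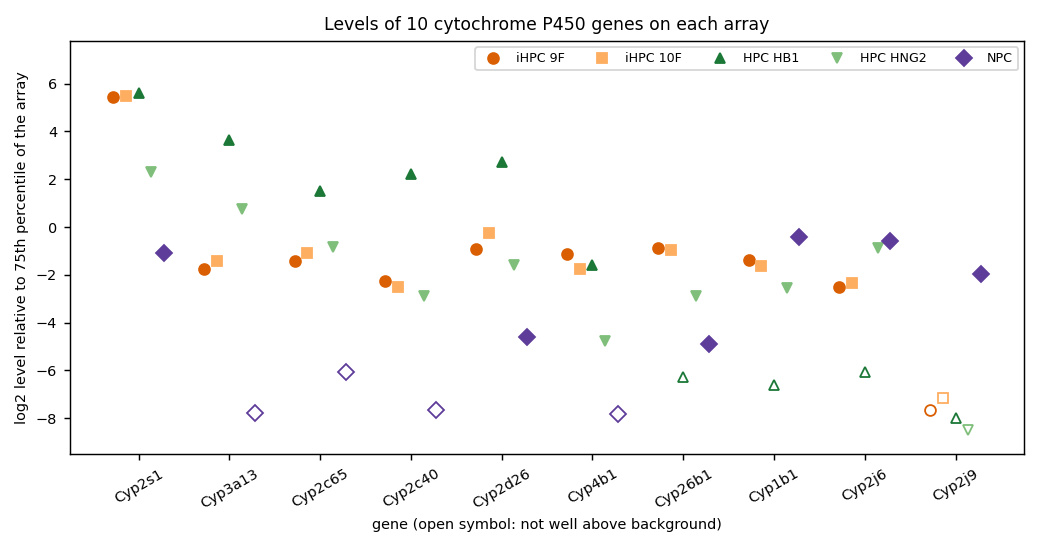
Log2 level of 10 P450 genes on each array relative to the 75th percentile of the array, with open symbols where the probe was not well above background. NPC is lowest for Cyp2s1, Cyp3a13, Cyp2c65, Cyp2c40, Cyp2d26 and Cyp4b1 and is the only filled symbol for Cyp2j9, while HB1 is the open outlying symbol for Cyp26b1, Cyp1b1 and Cyp2j6.

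In HPC against NPC, the comparison of established fetal liver lines with the neural line, 3 of 47 members were called, against 15.7% of all genes (6.68% higher and 8.98% lower). The drug-metabolising genes Cyp3a13 and Cyp2c65 rose and Cyp2j9 fell. Cyp3a13 was at least 221-fold above NPC in HPC (log2 difference 9.96 ± 1.34, limma adjusted p 0.0282, 2 HPC arrays against 1). Cyp2c65 was at least 60.9-fold higher (log2 difference 6.40 ± 1.09, limma adjusted p 0.0426). The Cyp2c65 call was lost with normexp background correction (difference 3.60, adjusted p 0.0615 by limma) and without the filter on dim probes (adjusted p 0.0597 by limma), in a range of 0.00262 to 0.119 over all alternatives. Cyp2j9 was at least 20.4-fold lower (limma adjusted p 0.0114), again with a spread from dim arrays alone. Cyp2c40 was at least 38.3-fold higher in HPC without a call (adjusted p 0.118 by limma), and Cyp2c66, a close relative of Cyp2c65, had levels of -3.25 and -2.61 in iHPC 9F and 10F, 0.09 and -1.80 in HPC HB1 and HNG2, and -5.39 in NPC. For Cyp2c66 all arrays were well above background, both HPC arrays exceeded both iHPC arrays and NPC was lowest, with an HPC minus NPC difference of 4.54 ± 0.93 and a limma adjusted p of 0.0572. The median difference was 0.30 over the members and -0.03 over all genes, and 11 members had an unadjusted p under 0.05 (23.4%, against 36.4% of all genes). HPC and NPC were scanned on different days, so scan day and cell type cannot be told apart here. The count depended on single arrays: it was 25 without HB1 (53.2%, against 49.4% of all genes), 28 without HNG2 (59.6%, against 50.6%), and 0 of the members and of all genes without either iHPC array, which enter only through the spread.

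In iHPC against HPC, the comparison of induced with liver-derived cells, limma called 0 of 47 members, against 5.42% of all genes (3.54% higher and 1.88% lower). At an unadjusted p under 0.05 there were 12 members (25.5%, against 27.6% of all genes), and the median difference was -0.19 over the members and 0.05 over all genes. Without HB1 the count was 27, with 19 higher in iHPC (40.4%, against 21.1% of all genes) and 8 lower (17%, against 15.1%). Without HNG2 it was 26, with 7 higher (14.9%, against 19.1% of all genes) and 19 lower (40.4%, against 16.9%). Of 15 members called in both of these fits, 6 were called in opposite directions, Cyp2c70, Cyp2d9, Cyp2d12, Cyp2j6, Cyp2j13 and Cyp4f18. The closest to a call was Cyp2j5, a mouse kidney and liver epoxygenase chosen for mention after its values were seen, with -5.30 and -4.07 in iHPC 9F and 10F, -8.20 and -8.21 in HPC HB1 and HNG2, and -7.66 in NPC. Neither HPC array was well above background, and Cyp2j5 was at least 3.08-fold higher in iHPC than in HPC with a limma adjusted p of 0.0511. Cyp4v3, whose human counterpart hydroxylates fatty acids in the eye, had levels of -1.49 and -1.22 in iHPC 9F and 10F, -3.08 and -2.57 in HPC HB1 and HNG2, and -2.00 in NPC. Both iHPC arrays exceeded both HPC arrays, with NPC between them, and the iHPC minus HPC difference was 1.47 ± 0.28 (limma adjusted p 0.0808). iHPC and HPC were also scanned on different days, so scan day and cell type cannot be told apart here either.

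**Figure D3:**
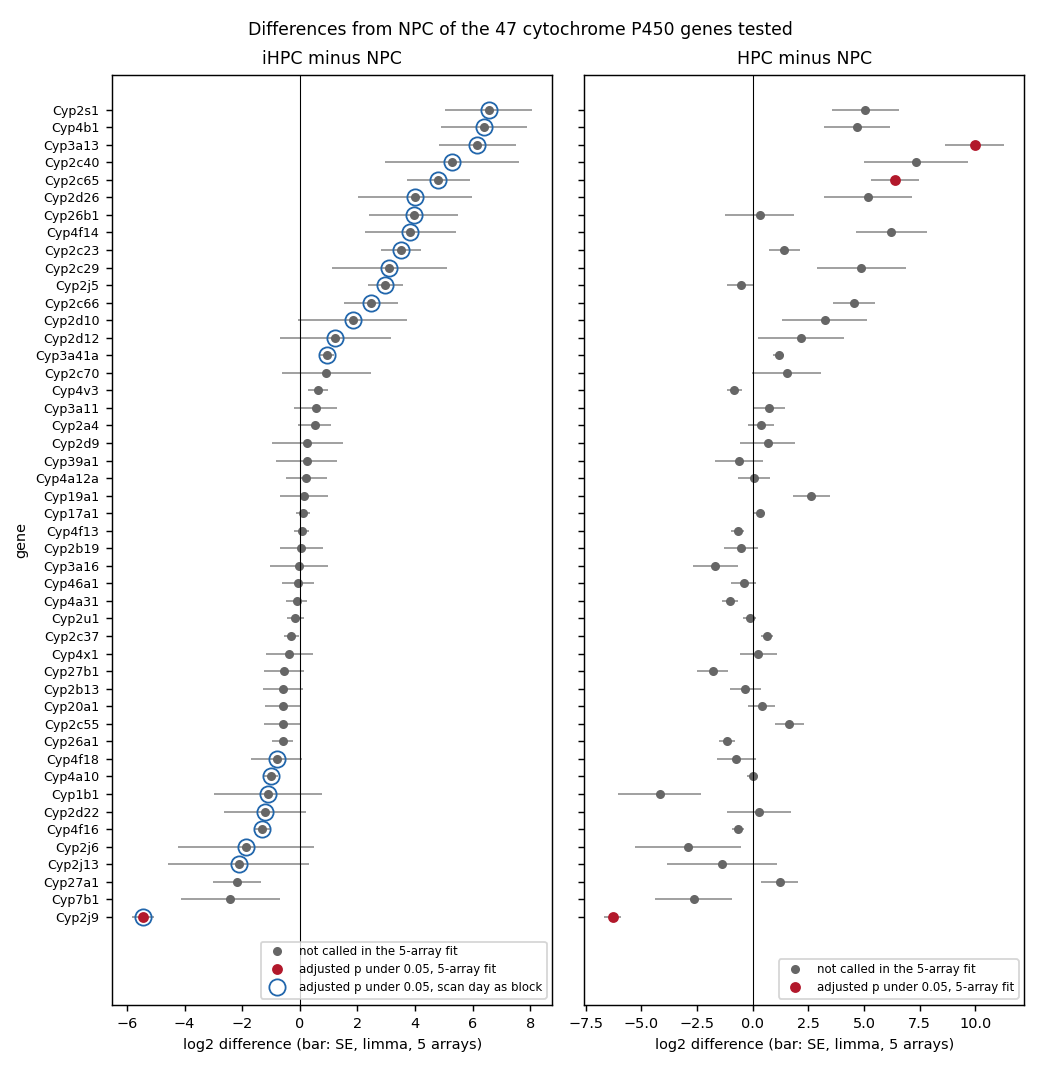
Log2 difference from NPC with its limma SE for the 47 members tested, for iHPC (left) and HPC (right), ordered by the iHPC difference, with red for genes called in the 5-array fit and blue rings for genes called with scan day as a block. Cyp2j9 is red in both panels, Cyp3a13 and Cyp2c65 are red for HPC only, and 23 genes carry a ring.

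HB1 and HNG2 were at least 4-fold apart at 19 of the 45 members well above background on at least 1 of them (7.1% of 18239 such genes), 15 of them higher in HB1 (3.92%) and 4 higher in HNG2 (3.18%). Of 39 members well above background on both HPC arrays, 14 (35.9%) were at least 4-fold apart, all higher in HB1, against 5.73% of all 17131 such genes (3.36% higher in HB1). The median of HB1 minus HNG2 was 1.55 over the 39 members, of which 33 were higher in HB1, and 0.05 over all genes. Between iHPC 10F and 9F, 0 of 37 members were at least 4-fold apart, against 0.254% of all genes (0.17% higher in 10F), and the median absolute difference was 0.16 over the members and 0.13 over all genes. These shares compare single arrays and carry no test. HB1 and HNG2 differ in line, strain and scan day together, which cannot be told apart, and the hepatocyte markers summed to 263 in HB1 and 30.7 in HNG2.

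All 5 members of the Cyp2d subfamily tested, 4 of 8 of the Cyp2c subfamily and Cyp2s1, Cyp3a13, Cyp4b1, Cyp4f14 and Cyp39a1 made up the 14 genes. HB1 exceeded HNG2 by 34.3-fold for Cyp2c40, 20.8-fold for Cyp2c29 and 19.6-fold for Cyp2d26. Cyp2d12 (18.2-fold), Cyp2d10 (17.1-fold), Cyp4f14 (10.9-fold) and Cyp2c70 (10.3-fold) followed, and the other 7 lay between 4.94-fold and 9.87-fold. Other probes did not all show this. Another Cyp2d22 probe was well above background in HNG2 (-6.11) and not in HB1 (-8.05), and another Cyp2d10 probe had -4.86 and -6.09 in HB1 and HNG2. The Cyp2d genes are close copies in 1 cluster on chromosome 15, and the file lists Cyp2d22 for both Cyp2d9 probes, so their shared direction may not be independent.

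A smaller set ran the other way. Of 6 members well above background on 1 of the HPC arrays, 4 were at least 4-fold higher in HNG2 (15.6% of 1108 such genes) and 1, Cyp3a16, at least 4-fold higher in HB1 (12.6%). Cyp2j6, a mouse P450 found mainly in gut, had levels of -2.51 and -2.35 in iHPC 9F and 10F, -6.07 and -0.87 in HPC HB1 and HNG2, and -0.57 in NPC. HB1 was not well above background, the other arrays were, and HNG2 and NPC were highest, with HNG2 at least 34.8-fold above HB1. The iHPC minus NPC difference of Cyp2j6 was -1.86 ± 2.37 (limma adjusted p 0.704 over 5 arrays, and 0.0107 with scan day as a block). Its iHPC minus HPC difference was 1.04 ± 1.94 and -1.56 without HB1. Cyp1b1, Cyp26b1 and Cyp2j13 were at least 10.9-fold, 8.71-fold and 10.4-fold higher in HNG2. Another Cyp2j13 probe ran the other way, well above background in HB1 (-5.33) and not in HNG2 (-8.71).

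**Figure D4:**
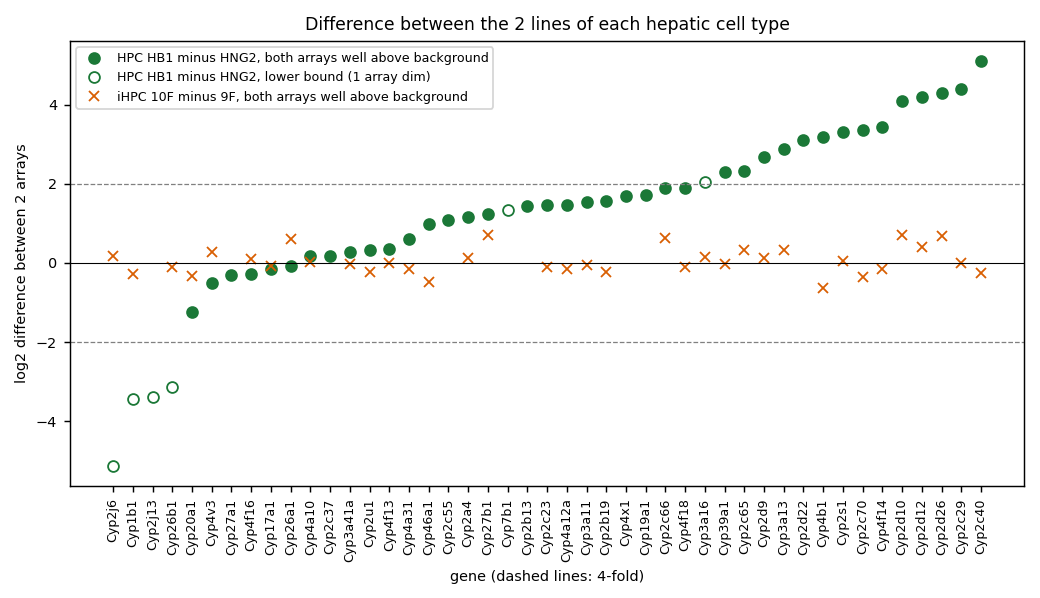
Log2 difference between the arrays of each hepatic cell type for the 45 members well above background on at least 1 HPC array, as HB1 minus HNG2 (green, open where 1 array was dim and the value is a bound) and 10F minus 9F (orange crosses), with dashed lines at 4-fold. The green points span -5.12 to 5.10, and the crosses stay inside the dashed lines.

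The retinoic acid hydroxylases differed from each other. Cyp26b1, which removes retinoic acid, had levels of -0.87 and -0.97 in iHPC 9F and 10F, -6.26 and -2.87 in HPC HB1 and HNG2, and -4.88 in NPC. Both iHPC arrays were above every other array, and HB1 was not well above background. The iHPC minus NPC difference was 3.95 ± 1.55 (limma adjusted p 0.241 over 5 arrays, and 0.00452 with scan day as a block), and the iHPC minus HPC difference was 3.64 ± 1.27 (adjusted p 0.182 by limma). The HPC minus NPC difference of Cyp26b1 was 0.31 ± 1.55, and -1.39 without HNG2. Cyp26a1, the other retinoic acid hydroxylase, had -5.51 and -4.90 in iHPC 9F and 10F, -5.82 and -5.75 in HPC HB1 and HNG2, and -4.61 in NPC, with NPC highest and HB1 lowest. Its iHPC minus NPC difference was -0.60 ± 0.36, with an adjusted p of 0.405 by limma.

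Cyp26a1 is shown because it holds a retinoic acid response element of the direct repeat type with a 5-base spacer. It was searched as AGTTCA, any 5 bases and AGTTCA on both strands, with no other half-site allowed. This form was in 1 of 55 members' promoters (1.82%) and 0.0259% of all promoters, and a single match is too few to compare these shares. The match is in capitals, on the minus strand of the gene, with its first base 32 bases before the start.
Cyp26a1, upstream of the start at chr19:37697558-37697807 (+ strand): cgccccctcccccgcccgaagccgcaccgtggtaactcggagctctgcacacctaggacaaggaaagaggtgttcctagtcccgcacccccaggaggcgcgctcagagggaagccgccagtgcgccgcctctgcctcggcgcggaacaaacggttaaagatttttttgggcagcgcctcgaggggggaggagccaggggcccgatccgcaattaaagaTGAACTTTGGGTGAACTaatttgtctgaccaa
Of 14 other retinoic acid pathway genes tested, 2 rose in iHPC against NPC (Rbp4, the plasma retinol carrier, and Dhrs3, a retinal reductase) and 1 fell (Crabp2). Rbp4 had levels of 6.15 and 6.41 in iHPC 9F and 10F, 7.72 and 6.60 in HPC HB1 and HNG2, and -1.27 in NPC, and its iHPC minus NPC difference was 7.55 ± 0.57 (limma adjusted p 0.0284). In iHPC against HPC 3 rose, among them Crabp1, which carries retinoic acid to its hydroxylases, with 1.26 and 1.65 in iHPC 9F and 10F, -7.04 and -5.75 in HPC HB1 and HNG2, and 5.23 in NPC and a difference of 7.85 ± 0.53 (limma adjusted p 0.0211), Crabp2 and Aldh1a2, which makes retinoic acid. In HPC against NPC 2 rose (Rbp4 and Dhrs3) and 4 fell (Crabp1, Crabp2, Aldh1a2 and Rarg). The list's median difference was 0.05 in iHPC against NPC, 0.52 in iHPC against HPC and -0.34 in HPC against NPC, and all genes had 0.03, 0.05 and -0.03. Of all genes, 2.79% were called higher and 2.85% lower in iHPC against NPC, and 3.54% and 1.88% in iHPC against HPC. In HPC against NPC the shares were 6.68% and 8.98%. These shares also bear on the counts of the gene lists below, none of which was tested as a set.

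Family 1 was represented by Cyp1b1 alone, an AHR target that oxidises oestradiol and polycyclic compounds. Its levels were -1.36 and -1.63 in iHPC 9F and 10F, -6.63 and -2.54 in HPC HB1 and HNG2, and -0.40 in NPC, with NPC highest, iHPC and HNG2 next and HB1 not well above background. The iHPC minus NPC difference was -1.09 ± 1.87 (limma adjusted p 0.788 over 5 arrays, and 0.0353 with scan day as a block). The HPC minus NPC difference of Cyp1b1 was -4.18 ± 1.87 (adjusted p 0.204 by limma). No array had another Cyp1b1 probe well above background. Of 6 other AHR targets tested, 2 fell in iHPC against NPC, Nqo1, a quinone reductase, and Ahrr, the AHR repressor. Nqo1 had levels of -0.30 and -0.59 in iHPC 9F and 10F, -5.86 and -6.02 in HPC HB1 and HNG2, and 2.26 in NPC. NPC and both iHPC arrays lay far above both HPC arrays, of which HB1 was not well above background, and the limma adjusted p was 0.0326 for iHPC against NPC, 0.0156 for iHPC against HPC and 0.00963 for HPC against NPC. In iHPC against HPC 1 of the 6 rose (Nqo1), and in HPC against NPC 3 fell (Nqo1, Ahrr and Tiparp). Their median difference was -0.68 in iHPC against NPC, 1.39 in iHPC against HPC and -1.49 in HPC against NPC.

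Of 5 steroid-synthesis P450 genes 4 were well above background on at least 1 array and 2 could be tested, Cyp17a1 and Cyp19a1. Neither was called by limma in the 3 comparisons, and at an unadjusted p under 0.05 there were 0 in iHPC against NPC, 1 in iHPC against HPC and 1 in HPC against NPC. Cyp11a1, which cuts the cholesterol side chain, was well above background in 10F alone, with -5.76 and -3.02 in iHPC 9F and 10F, -8.15 and -8.72 in HPC HB1 and HNG2, and -7.65 in NPC, and it was not tested. Cyp17a1, which hydroxylates and cleaves steroids, had -1.37 and -1.45 in iHPC 9F and 10F, -1.29 and -1.14 in HPC HB1 and HNG2, and -1.52 in NPC, all close together, with an iHPC minus NPC difference of 0.11 ± 0.24 (limma adjusted p 0.837). Cyp19a1, the aromatase that makes oestrogens, was well above background in HB1 and HNG2 alone, with -8.01 and -7.51 in iHPC 9F and 10F, -4.44 and -6.14 in HPC HB1 and HNG2, and -7.92 in NPC, and was at least 1.1-fold lower in iHPC than in HPC (limma adjusted p 0.133). Cyp21a1, of glucocorticoid synthesis, was well above background in HB1 alone, with -5.61 and -5.87 in iHPC 9F and 10F, -4.80 and -6.78 in HPC HB1 and HNG2, and -6.08 in NPC. Among partner genes of steroid and bile acid synthesis, 3 of 14 tested rose in iHPC against NPC (Hsd3b1, Hsd3b6 and the bile salt pump Abcb11), 4 rose in iHPC against HPC (these and Hsd3b2), and 1 rose in HPC against NPC (Srd5a1). Hsd3b6, a hydroxysteroid dehydrogenase, had -1.87 and -1.51 in iHPC 9F and 10F, -8.27 and -8.90 in HPC HB1 and HNG2, and -7.88 in NPC. Both iHPC arrays lay above the other 3, which were not well above background, at least 15-fold above NPC and 24.6-fold above HPC (limma adjusted p 0.0284 and 0.0166). The Hsd3b genes are close copies that probes may not tell apart, and the list's median difference was 2.06, 1.42 and 0.23 in the 3 comparisons, in the order above.

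Of 6 sterol and bile acid P450 genes 4 were tested, and limma called none of these in the 3 comparisons, with 1 at an unadjusted p under 0.05 in iHPC against HPC and 0 in the others. Cyp27a1, a mitochondrial sterol hydroxylase of bile acid synthesis, had -7.40 and -5.67 in iHPC 9F and 10F, -3.29 and -3.00 in HPC HB1 and HNG2, and -4.36 in NPC. Neither iHPC array was well above background, and Cyp27a1 was at least 4.88-fold lower in iHPC than in HPC (difference -3.39 ± 0.68, limma adjusted p 0.0848). Cyp7b1, which hydroxylates oxysterols, had -6.25 and -7.43 in iHPC 9F and 10F, -5.29 and -8.87 in HPC HB1 and HNG2, and -4.43 in NPC and was well above background in HB1 and NPC alone. Cyp39a1, which acts on an oxysterol of brain origin, had 0.89 and 0.86 in iHPC 9F and 10F, 1.18 and -1.12 in HPC HB1 and HNG2, and 0.64 in NPC, so that HNG2 was low and the other arrays lay close together. Cyp46a1, the brain cholesterol hydroxylase, had -2.87 and -3.36 in iHPC 9F and 10F, -2.98 and -3.96 in HPC HB1 and HNG2, and -3.05 in NPC, with all arrays well above background and no separation of NPC. The vitamin D enzyme Cyp27b1, which makes the active hormone, had -4.14 and -3.44 in iHPC 9F and 10F, -4.42 and -5.66 in HPC HB1 and HNG2, and -3.24 in NPC, highest in NPC and lowest in HNG2, with an HPC minus NPC difference of -1.80 ± 0.68 (limma adjusted p 0.158). Cyp24a1, which degrades the hormone, and Cyp2r1 were not well above background on any array.

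Some family 4 genes and Cyp20a1 were well above background on all 5 arrays. Cyp4f13, of the subfamily that hydroxylates eicosanoids and fatty acids, had 1.35 and 1.35 in iHPC 9F and 10F, 0.78 and 0.43 in HPC HB1 and HNG2, and 1.29 in NPC, with both HPC arrays below iHPC and NPC. Cyp4f16, of the same subfamily, had -0.32 and -0.23 in iHPC 9F and 10F, 0.21 and 0.49 in HPC HB1 and HNG2, and 1.03 in NPC, with iHPC below HPC and NPC highest. Its iHPC minus NPC difference was -1.30 ± 0.26 (limma adjusted p 0.0884 over 5 arrays, and 0.0162 with scan day as a block), and another Cyp4f16 probe kept NPC highest and iHPC lowest. Cyp20a1, an orphan P450 without a settled substrate, had -1.16 and -1.50 in iHPC 9F and 10F, -0.97 and 0.26 in HPC HB1 and HNG2, and -0.75 in NPC. Both iHPC arrays of Cyp20a1 lay below both HPC arrays, and NPC lay between the HPC arrays, with an iHPC minus HPC difference of -0.98 ± 0.51 (limma adjusted p 0.306).

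By class, the calls with scan day as a block in iHPC against NPC (16.8% of all genes higher and 18.2% lower) were 5 of 8 Cyp2c genes higher, 3 of 5 Cyp2d genes higher and 1 lower, 2 of 4 Cyp3a genes higher, and 1 of 4 Cyp2j genes higher and 3 lower. The Cyp4a and Cyp4b genes had 1 higher and 1 lower of 4, and the Cyp4f, Cyp4v and Cyp4x genes 1 higher and 2 lower of 6. Cyp2s1 and Cyp26b1 were higher and Cyp1b1 lower, and 0 of 3 genes of the Cyp2a and Cyp2b subfamilies were called. Cross-binding bears on the large subfamilies: the file lists at least 1 other gene for 14 of the 108 probes, of 10 members, and 30 members had more than 1 probe. Among the 23 genes called with scan day as a block, the probe in use listed other genes for Cyp2c40 and for no other.

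The electron donors of the P450 system were present on every array. Of 9 such genes, among them Por, the oxidoreductase, and Fdx1, the mitochondrial ferredoxin, limma called 0 in each comparison, with 2, 0 and 2 at an unadjusted p under 0.05 in iHPC against NPC, iHPC against HPC and HPC against NPC, and their median difference was 0.68 in iHPC against NPC, 0.08 in iHPC against HPC and 0.57 in HPC against NPC. Of 12 haem genes tested limma called none in iHPC against NPC (2 at an unadjusted p under 0.05), 1 fell in iHPC against HPC (Uros), and in HPC against NPC 1 rose (Uros) and 1 fell (Blvrb).

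Of 26 regulators of P450 genes tested, 4 rose and 3 fell in iHPC against NPC (2.79% and 2.85% of all genes). In iHPC against HPC 0 rose and 4 fell (3.54% and 1.88% of all genes). In HPC against NPC 5 rose and 3 fell (6.68% and 8.98% of all genes). The list was not tested as a set, and its medians were -0.05, -0.63 and 0.08 in these comparisons. The labels do not name the 9 or 10 factors, so a signal from a vector and one from the cell's own gene cannot be told apart for any regulator. Hnf4a, the nuclear receptor on which many liver P450 genes depend, had 1.41 and 1.56 in iHPC 9F and 10F, 2.60 and 2.02 in HPC HB1 and HNG2, and -7.56 in NPC. Its probe was not well above background in NPC, although another Hnf4a probe was, and it was at least 135-fold higher in iHPC than in NPC (limma adjusted p 0.0264). Nr1i2, the xenobiotic sensor PXR, had -3.27 and -3.39 in iHPC 9F and 10F, -1.27 and -2.08 in HPC HB1 and HNG2, and -7.49 in NPC. Both iHPC arrays lay between HPC and NPC, at least 4.81-fold above NPC (limma adjusted p 0.0339). Nr1h4, the bile acid receptor FXR, rose as well, by at least 226-fold in iHPC against NPC (limma adjusted p 0.0284).

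Foxa2, a liver pioneer factor, had 0.07 and -0.36 in iHPC 9F and 10F, 4.91 and 4.56 in HPC HB1 and HNG2, and 2.98 in NPC. Both iHPC arrays lay below HPC and below NPC, by -4.88 ± 0.28 against HPC and -3.13 ± 0.34 against NPC (limma adjusted p 0.0183 and 0.0351). Foxa3 was at least 13.3-fold lower in iHPC than in HPC (limma adjusted p 0.0451). Cebpa, a factor of mature hepatocytes, had -0.55 and -0.61 in iHPC 9F and 10F, 1.32 and 1.64 in HPC HB1 and HNG2, and 1.46 in NPC, and fell in iHPC against both. Ahr had 0.38 and 0.34 in iHPC 9F and 10F, 2.62 and 1.81 in HPC HB1 and HNG2, and -0.10 in NPC and rose in HPC against NPC by 2.31 ± 0.43 (limma adjusted p 0.0489), while its target Cyp1b1 was not called there and its repressor Ahrr fell.

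**Figure D5:**
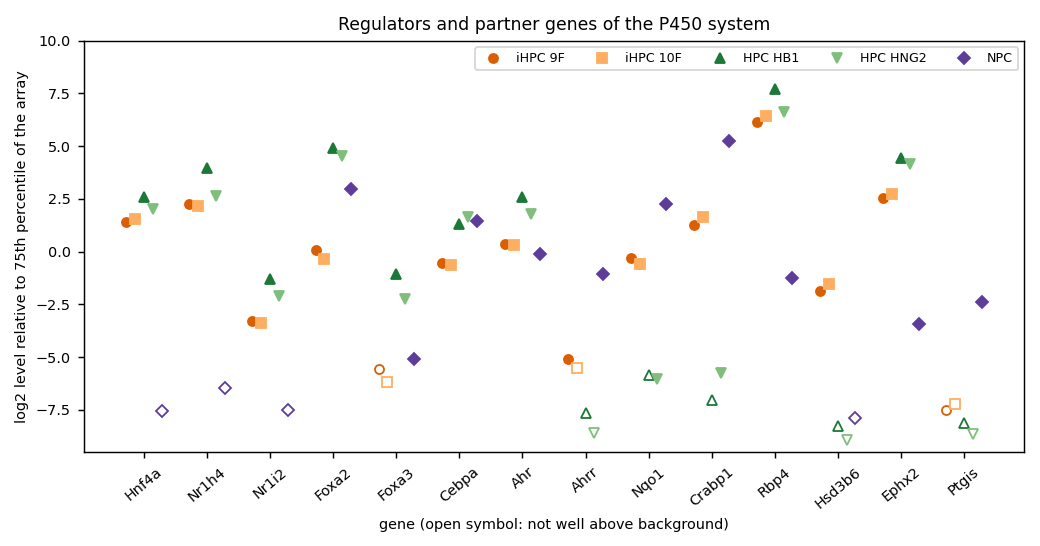
Log2 level of 14 regulators and partner genes on each array relative to the 75th percentile of the array, with open symbols where the probe was not well above background. Hnf4a, Nr1h4 and Nr1i2 are open in NPC alone, and Hsd3b6 is filled in iHPC alone.

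Epoxide and eicosanoid genes act on P450 products. Of 8 tested, 1 rose (Ephx2) and 2 fell (Ptgis and Ptgs1) in iHPC against NPC, 1 rose (Ptgs1) and 2 fell (Ephx1 and Ephx2) in iHPC against HPC, and 2 rose (Ephx1 and Ephx2) and 2 fell (Ptgis and Ptgs1) in HPC against NPC. Ephx2, the soluble hydrolase that opens the fatty acid epoxides made by Cyp2c and Cyp2j enzymes, had 2.55 and 2.74 in iHPC 9F and 10F, 4.44 and 4.18 in HPC HB1 and HNG2, and -3.44 in NPC. NPC was lowest and HPC highest, with an iHPC minus NPC difference of 6.08 ± 0.27 (limma adjusted p 0.0267). Ptgis, the prostacyclin synthase and itself a P450 protein by structure, had -7.50 and -7.20 in iHPC 9F and 10F, -8.11 and -8.64 in HPC HB1 and HNG2, and -2.37 in NPC. It was well above background in NPC alone, at least 8.35-fold lower in iHPC and 15.3-fold lower in HPC than in NPC (limma adjusted p 0.0284 and 0.0114). As for Cyp2j9, the spread behind these p-values comes from dim arrays alone. The list's median difference was 0.49, 0.29 and -0.80 in these comparisons.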

How the data were processed

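Total RNA (0.25 µg per sample, per the labels' protocols) was labelled with Cy3 and hybridised to 5 Agilent arrays. The deposited values are spot intensities, corrected for background by Agilent Feature Extraction 10.7.3.1, per the file headers, with no normalization between arrays. On 100% of spots the deposited matrix held this same intensity. From these, log2 was taken, the 75th percentile of each array subtracted, control and outlier spots left out, and spots of a probe averaged. Current symbols came from RefSeq accessions (GRCm38.p6): 96 member probes were named so and 12 by the file's symbol. For each gene the probe with the highest mean was used, among those well above background on all arrays of a cell type. Groups follow the labelled cell type. limma 3.58.1 in R 4.3.3 (lmFit, eBayes, two-sided) fitted 5 arrays in 3 groups with 2 residual degrees of freedom, adjusted p-values by Benjamini-Hochberg over 19302 genes, and was tested on simulated data. The NPC array was assumed to vary like the others. An exact permutation test of 2 arrays against 2 cannot go below p = 0.333. Coordinates of probes are those of the files (mm7).

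Values are given on each array for members called in a comparison, for those with a mean level among the 10 highest of a cell type (a rank over different probes, used to choose names and not as a result), and for every detected member of the steroid, sterol, retinoic acid, vitamin D and family 1 classes. One regulator in the counts is not reported here by name. The members and gene lists were chosen with earlier results of these data known. Alternatives covered background correction, normalization, the filter on dim probes, the probe summary, the arrays in the fit, scan day and each HPC or iHPC array left out. Figures were drawn with matplotlib 3.10.9.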

Additional observations from a re-analysis of the deposited data

Results flagged for a closer look

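Members were singled out where HB1 lay at least 2-fold to 1 side of NPC and HNG2 at least 2-fold to the other, with an array that was not well above background set at the higher of its own value and the lowest level well above background. The difference between the lines was not tested, since each line has 1 array. Cyp2d22 was 1.85 above NPC in HB1 and had a difference of -1.26 in HNG2, on the log2 scale. Cyp26b1 had a difference of -1.12 from NPC in HB1, where it was not well above background, and 2.01 in HNG2. Cyp2j13 had -2.08 in HB1, where it was not well above background, and 1.30 in HNG2. HB1 and HNG2 differ in line, strain and scan day together, which cannot be told apart. No cell type had the 4 arrays needed to look for an outlying array.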

How the results depend on the processing

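The arrays and the scale decided how many genes were called. P450 genes called in iHPC against NPC (1 of 47) numbered 2 with normexp, quantile normalization, median centring or the mean of a gene's probes, 0 with only probes well above background on all arrays or with the iHPC arrays as separate groups, and 23 with only the 3 arrays compared or with scan day as a block. All genes called there (1089) numbered 305 without a filter on dim probes, 492 with only probes well above background on all arrays, 0 with separate iHPC groups, and 6752 with only the arrays compared or with scan day as a block. In iHPC against HPC, P450 calls (0) numbered 2 with normexp and 1 with quantile normalization, median centring or probe means, and all calls (1046) numbered 2108 with normexp, 460 without the filter, 617 with probes detected on all arrays and 0 with separate iHPC groups. In HPC against NPC, P450 calls (3) numbered 6 with quantile normalization or median centring, 1 with probes detected on all arrays, and 0 with separate iHPC groups or only the arrays compared. All calls there (3024) numbered 4746 with normexp, 1643 without the filter, and 0 with separate iHPC groups or only the arrays compared. Fits with separate iHPC groups or without an iHPC array lose the close iHPC pair from the spread, and those without an HPC array rest on that pair. For iHPC against NPC, the fits without an HPC array, with only the arrays compared and with scan day as a block are the same fit. For HPC against NPC, those with separate iHPC groups, without an iHPC array and with only the arrays compared coincide as well. The causes of the other changes were not tested.

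Leaving out 1 array gave 0 to 23 P450 calls and 0 to 6752 calls in all for iHPC against NPC. It gave 0 to 27 and 0 to 6987 for iHPC against HPC, and 0 to 28 and 0 to 9759 for HPC against NPC. The lone array left in a cell type is then assumed to vary like the others. For 66 differences of named genes there were 850 alternative values. These are not all separate, since the deposited matrix held the same intensities and some fits coincide. Most of the 66 differences were uncalled in the 5-array fit, so the tally does not measure stability. Of the 850 values, 742 kept their side of the threshold, whatever the sign of an uncalled difference. A further 89 gained a call with the same sign, 17 lost it, and 2 changed sign and were called in the alternative fit. Those 2 were Cyp2j6 in iHPC against HPC, -1.56 without HB1 and up to 3.64 with another array left out, and Cyp26b1 in HPC against NPC, -1.39 without HNG2 and up to 2.01. These are changes against the 5-array fit for the named genes. Over all 47 members, the fits without HB1 and without HNG2 called 6 of 15 shared genes in opposite directions in iHPC against HPC, and 3 of 16 in HPC against NPC (Cyp26b1, Cyp2d22 and Cyp2j13). The 17 lost calls were all of Cyp2j9, Cyp3a13 and Cyp2c65, and 2 of them, of Cyp2c65, came with normexp or without the filter on dim probes, the others from fits that change the arrays behind the spread. Slide as a block could not be fitted as a test, since 1 slide held 10F and NPC, another 9F, and HB1 and HNG2 1 each. No paired analysis was possible because the labels give no replicate numbers.

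Signal over background limits the low genes: the lowest level well above background ran from -6.62 in HNG2 to -5.19 in 10F, so a fold against a dim array is a bound.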

Other observations

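Probes of the same P450 gene did not always give the same pattern. For Cyp2d22 the probe that was dim in HB1 had -6.02 and -5.77 in iHPC 9F and 10F, against -3.58 in NPC, with NPC highest, while the probe in use put HB1 highest. For Cyp2d10 the probe not in use had -4.54 and -4.53 in iHPC 9F and 10F and -4.99 in NPC, and lacked the high HB1 value of the probe in use, 0.10. For Cyp2j13 the probe that was well above background in HB1 and dim in HNG2 was also well above background in 9F (-4.99), where the probe in use was not. Both Cyp2j5 probes agreed that iHPC was well above background and HPC and NPC were not, with -4.85 and -4.96 in iHPC 9F and 10F on the probe not in use. Both Cyp39a1 probes put HNG2 lowest, at -1.74 on the probe not in use. None of these values was tested.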
